A study of Sus scrofa with 6 samples.

Results

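Macrophage and lymphocyte markers were examined in the ventricular myocardium of male Tibetan minipigs. The list held 35 genes chosen by symbol, and 29 of them had a row among the 13288 genes of the deposited table. The members were read as 17 myeloid, 8 T cell and 10 pan-leukocyte markers, of which 16, 3 and 10 were in the table. No row carried the symbol CD2, CD3D, CD8A, CD247, ZAP70 or CYBB, so these 6 genes were not analysed here. Tissue came from 3 sham minipigs (replicates 1 to 3), which underwent thoracotomy without constriction, and 3 minipigs with descending aortic constriction (DAC, replicates 4 to 6). It was collected 12 weeks after surgery, when chronic pressure overload had been used to model heart failure with preserved ejection fraction. Neither the age of the animals nor the ventricle sequenced is given in the sources used here. The values are FPKM, fragment numbers divided by transcript length and by library size. The summed FPKM per library was between 281377 and 308771, and the read depth is unknown. Positions are those of the table, on susScr11, and each overlaps the RefSeq position on Sscrofa11.1. Replicates are separate minipigs with 1 library each, so a value marked SD is spread between animals and their libraries. Standard errors and confidence intervals are those of the difference between groups, from a model fitted over all genes.

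The healthy heart holds resident macrophages that lie between cardiomyocytes, clear debris and carry scavenger receptors such as CD163, the mannose receptor MRC1 and the hyaluronan receptor LYVE1. Under pressure overload, monocytes can enter from the blood, guided by chemokines and by adhesion molecules on the endothelium, and T cells can follow. Pan-leukocyte genes such as PTPRC, which encodes the phosphatase CD45, are expressed by nearly all white blood cells, so their RNA in whole tissue reflects macrophages and lymphocytes together. In bulk tissue, fewer cells of a type and less RNA per cell cannot be told apart. The tissue label was checked with the contractile genes: in the 6 libraries MYH7 was at 1781 to 1935 FPKM and TNNT2 at 3593 to 5915 FPKM.

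The comparison of DAC with sham myocardium asked whether leukocyte RNA differed between them. CD163 was lower and F13A1 was higher in the DAC group, and no other member passed the test. Differences are given in log2(FPKM + 1), which understates the change of low genes. Testing required 1 FPKM or more in 3 or more samples. The test was limma's moderated test, and a gene was called at an unadjusted P under 0.05. Of the 29 members in the table, 22 passed the minimum: 15 myeloid, 7 pan-leukocyte and 0 T cell markers. Among these 22, 1 was called higher and 1 was called lower, and 8.51% of all 11029 genes tested were called, 3.25% higher and 5.27% lower. After Benjamini-Hochberg adjustment over all genes tested, limma gave 0 genes with an adjusted P under 0.05, so neither call holds after adjustment. The values of the groups did not overlap in 4 of the 29 members, against 14.5% of the genes in the table, with 3 members above the sham range (6.53% of the table) and 1 below it (8.0%). Of the 22 members tested, 2 lay above (6.01% of genes tested) and 1 below (8.91%), against 14.9% in either direction. A two-sided exact permutation test of such values gives P = 0.10, and no smaller P can be reached with groups of this size.

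The scavenger receptors of resident macrophages were measured at several FPKM. CD163 (chromosome 5, 63300146 to 63334498), which takes up complexes of hemoglobin and haptoglobin, was at 11.05, 9.98 and 12.6 FPKM in sham replicates 1 to 3 and at 9.16, 7.70 and 7.31 FPKM in DAC replicates 4 to 6. Every DAC value was below every sham value. The mean fell from 11.2 ± 1.33 FPKM (SD, n = 3) with sham surgery to 8.05 ± 0.97 FPKM (SD, n = 3) with constriction. The log2 fold change of CD163 was -0.43 with a standard error of 0.13 (unadjusted P = 0.0124, adjusted P = 0.508 from limma), and the call held under all 14 alternatives. MRC1 (chromosome 10, 44107072 to 44244410) was at 6.31, 4.91 and 7.25 FPKM in the sham samples and at 4.17, 4.93 and 5.96 FPKM in the DAC samples. These groups overlapped, and the log2 difference of MRC1 was -0.25 with a 95% confidence interval from -0.64 to 0.15. STAB1 (chromosome 13, 34631693 to 34664420), the scavenger receptor stabilin-1, was at 9.75 to 12.7 FPKM in the sham group and 8.20 to 9.84 FPKM in the DAC group, with a log2 difference of -0.28. STAB1 was called lower without sham replicate 2 (-0.37) but not in all 6 samples (unadjusted P = 0.0606, adjusted P = 0.596 from limma). Its annotated end overlaps NT5DC2 on the opposite strand over 5172 bases, and how shared reads were assigned is not given in the sources used here.

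LYVE1 (chromosome 2, 48937417 to 48954203), picked out after its values were seen, had the largest log2 difference of the 29 members, -0.62 (standard error 0.28, adjusted P = 0.596 from limma). It was at 12.5, 8.89 and 7.13 FPKM in the sham samples and at 4.49, 4.45 and 8.92 FPKM in the DAC samples. DAC replicate 6 lay within the sham range, and the other DAC samples lay below it. Without DAC replicate 6 the difference was -0.91, and without sham replicate 3 it was -0.79, both with an unadjusted P under 0.05. LYVE1 and STAB1 are also expressed by lymphatic endothelium. Of 7 lymphatic endothelial markers tested, 1 was called higher and 0 were called lower, beside 3.25% and 5.27% of all genes tested. Among the lymphatic markers, FLT4, the receptor of lymphatic growth factors, was at 1.87 to 3.53 FPKM in the sham group and 1.52 to 2.84 FPKM in the DAC group. The called gene was PDPN (podoplanin), at 5.01 to 6.64 FPKM in the sham group and 8.29 to 8.89 FPKM after DAC, which is 0.51 in log2. The summed level of the lymphatic list was 98.0 to 138 FPKM in the sham group and 103 to 124 FPKM in the DAC group, and its part in the LYVE1 and STAB1 values was not tested. Most of that sum came from PROX1, at 58.1 to 67.0 FPKM over the 6 libraries, and CCL21, at 11.1 to 40.5 FPKM, so it says little about the other 5 genes. PROX1 was far above FLT4 in every library, and which cells gave the PROX1 and PDPN RNA cannot be told from whole tissue.

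**Figure D1:**
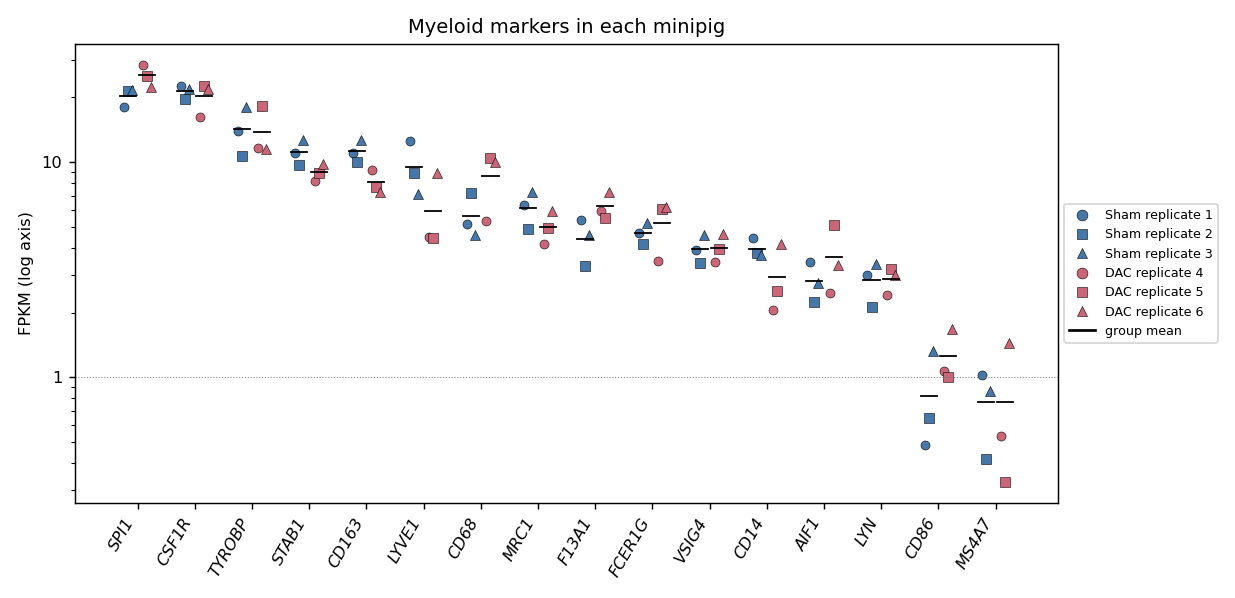
FPKM of the 16 myeloid markers in the table, on a log axis, in each of 3 sham (blue) and 3 DAC (red) minipigs, with black bars at the group means and a dotted line at 1 FPKM. CD163 is lower in every DAC sample, between 7.31 and 9.16 FPKM, than in any sham sample, while F13A1 and SPI1 are higher in every DAC sample and the remaining 13 genes overlap between the groups.

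F13A1 and CD68 were higher in the mean of the DAC group. F13A1 (chromosome 7, 3751291 to 3900765), the A chain of coagulation factor XIII, made by resident macrophages and also carried by platelets, was at 5.37, 3.28 and 4.603 FPKM in the sham samples. It was at 5.95, 5.50 and 7.25 FPKM in the DAC samples, all above the sham samples, although DAC replicate 5 and sham replicate 1 differed little. The log2 fold change of F13A1 was 0.43 with a standard error of 0.17 (unadjusted P = 0.0424, adjusted P = 0.584 from limma). The call was lost without sham replicate 2 (0.27), sham replicate 3 (0.46), DAC replicate 4 (0.45) or DAC replicate 6 (0.33), and when the variance of each gene was estimated on its own (0.43). The summed level of the red blood cell and platelet markers was 19.8 to 46.8 FPKM in the sham group and 15.7 to 47.0 FPKM in the DAC group, with 6 of the 14 genes in the table, 3 tested and 0 called. That range followed the red cell gene HBB, at 5.86 to 38.0 FPKM. The platelet integrin ITGA2B was at 5.64 to 6.98 FPKM in the sham group and 5.92 to 7.74 FPKM in the DAC group, and ITGB3 was at 0.856 to 1.01 FPKM and 0.9746 to 1.40 FPKM.

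CD68 (chromosome 12, 52874785 to 52877695), a lysosomal glycoprotein abundant in phagocytes, was at 5.18, 7.17 and 4.59 FPKM in the sham samples and at 5.32, 10.4 and 10.1 FPKM in the DAC samples. DAC replicates 5 and 6 were above all sham samples, while DAC replicate 4 was within the sham range. The log2 difference of CD68 was 0.50 with a 95% confidence interval from -0.11 to 1.11 (unadjusted P = 0.0918, adjusted P = 0.629 from limma). Without DAC replicate 4 it was 0.78 and CD68 was called. The sample left out there was the DAC sample within the sham range, so that call adds no support for a difference. CD163 relative to CD68, a ratio within each sample that scaling does not alter, was 1.39 to 2.75 in the sham group, 1.72 in DAC replicate 4, 0.737 in DAC replicate 5 and 0.726 in DAC replicate 6. This ratio was chosen after the values were seen and its groups overlap.

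SPI1 (chromosome 2, 15227829 to 15245667), which encodes the myeloid transcription factor PU.1, had the highest mean FPKM of the list. It was at 18.1, 21.5 and 21.6 FPKM in the sham samples and at 28.4, 25.2 and 22.5 FPKM in the DAC samples, and the groups did not overlap. The log2 difference was 0.30 with a standard error of 0.13 (unadjusted P = 0.0528, adjusted P = 0.592 from limma), and SPI1 was called after median scaling (0.32), after quantile normalization (0.35), with mitochondrially encoded genes left out (0.34) and without DAC replicate 6 (0.38). DAC replicate 4, where SPI1 was highest, had the lowest value of 5 of the 16 myeloid members, and so did sham replicate 2. Over all genes in the table, DAC replicate 4 was the lowest sample in 19.5% and sham replicate 2 in 14.2%. In the annotation, SPI1 ends 1871 bases before MYBPC3 on the same strand. MYBPC3, the cardiac myosin-binding protein C of cardiomyocytes, was at 945 to 1162 FPKM, and the part of reads from this neighbour in the SPI1 values was not tested. The summed FPKM of the myeloid members without SPI1 was 91.1 to 111 in the sham group and 80.5 to 107 in the DAC group.

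The remaining receptors and adaptors of myeloid cells overlapped between the groups. CSF1R, the receptor of the macrophage growth factors CSF1 and IL34, was at 22.5, 19.6 and 22.0 FPKM in the sham samples and at 16.2, 22.7 and 21.9 FPKM in the DAC samples. Only DAC replicate 4 was below the sham range, and the log2 difference of CSF1R was -0.09 with a 95% confidence interval from -0.44 to 0.26. TYROBP, the adaptor DAP12 that carries signals of many activating receptors, was at 13.96, 10.7 and 18.1 FPKM in the sham samples and at 11.6, 18.3 and 11.5 FPKM in the DAC samples. Its spread was nearly as wide within each group as over all samples, and the log2 difference was -0.05 with an interval from -0.60 to 0.51. FCER1G, the common gamma chain of Fc receptors, had a log2 difference of 0.10 and was called without DAC replicate 4 (0.33). CD14, the co-receptor for bacterial lipopolysaccharide, was at 3.70 to 4.43 FPKM in the sham group and at 2.06, 2.53 and 4.18 FPKM in DAC replicates 4, 5 and 6. The log2 difference of CD14 was -0.38 in all samples and -0.60 without DAC replicate 6, where it was called.

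The costimulatory molecule CD86 passed the minimum with 3 DAC samples and 1 sham sample at 1 FPKM or more, and its log2 difference was 0.32 (adjusted P = 0.680 from limma). Without sham replicate 3, the 1 sham sample at 1 FPKM or more, it was 0.51 and CD86 was called. There CD86 passed the minimum through the DAC samples alone, so that call cannot be read as support for a difference. AIF1, the calcium-binding protein IBA1, was at 2.24 to 3.45 FPKM in the sham group and 2.46 to 5.11 FPKM in the DAC group, a log2 difference of 0.25. The Src family kinase LYN and the complement receptor VSIG4 had log2 differences of 0.02 and 0.01, and the intervals of all 3 genes include 0. MS4A7, a membrane protein of macrophages, was at 0.326 to 1.44 FPKM and was not tested, and it overlaps a gene without a symbol on the opposite strand. Of the 16 myeloid members in the table, 8 had a higher and 8 a lower mean log2 value in the DAC group. Their median log2 difference was -0.012, against -0.0049 over all genes in the table. The summed FPKM of the 16 genes was 124 ± 10.3 (SD, n = 3) in the sham group and 123 ± 12.2 (SD, n = 3) in the DAC group.

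**Figure D2:**
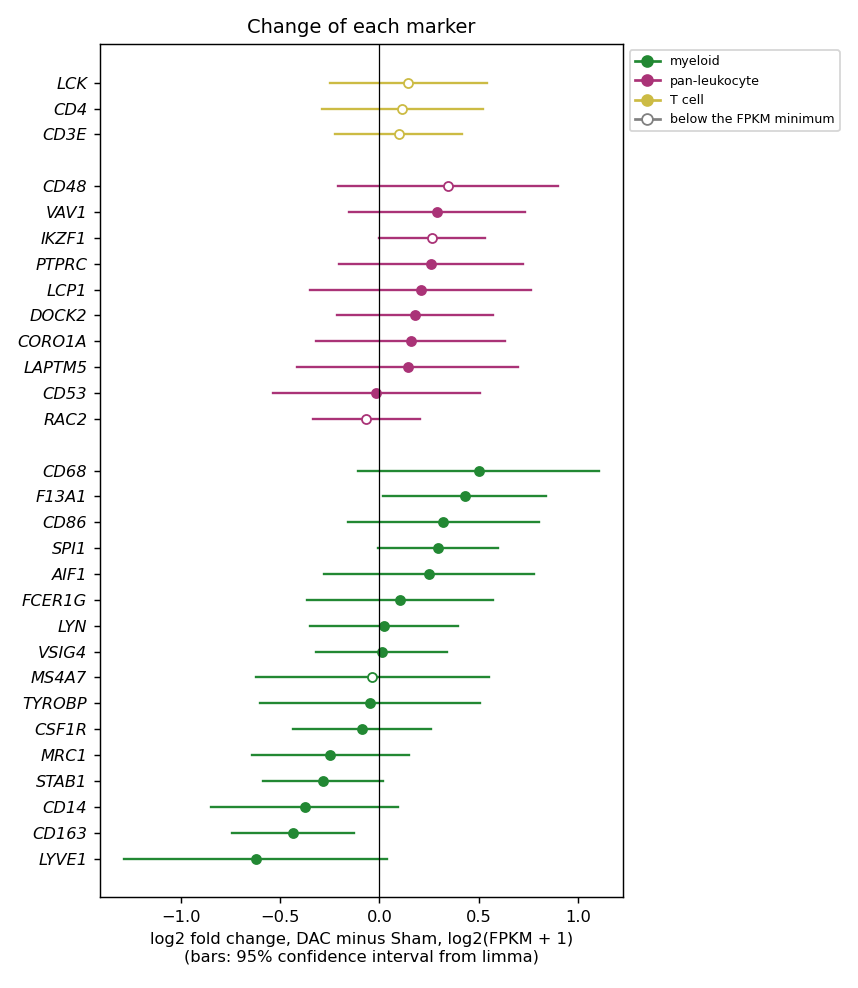
Log2 fold change (DAC minus sham, in log2(FPKM + 1)) of the 29 markers with bars for the 95% confidence interval from limma, grouped as T cell, pan-leukocyte and myeloid, with open circles for the 7 genes below the FPKM minimum, taken from the fit without it. Only the intervals of CD163, F13A1 and, by a margin under 0.01, IKZF1 lie on one side of 0.

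Of the 7 pan-leukocyte markers tested, 0 were called, and DAC replicate 5 was the highest sample in 8 of the 10 in the table. PTPRC (chromosome 10, 21466373 to 21764560) was at 1.99, 1.86 and 1.90 FPKM in the sham samples and at 1.61, 3.49 and 2.64 FPKM in the DAC samples. DAC replicate 4 was the lowest of the 6 samples and DAC replicate 5 the highest. The sham SD of PTPRC was 0.0682 FPKM and the DAC SD was 0.940 FPKM. The log2 difference was 0.26 with a standard error of 0.20 (unadjusted P = 0.226, adjusted P = 0.723 from limma), and PTPRC was called without DAC replicate 4 (0.47). LAPTM5, a lysosomal membrane protein of hematopoietic cells, was at 13.7, 13.98 and 16.8 FPKM in the sham samples and at 12.05, 24.1 and 15.2 FPKM in the DAC samples. CORO1A, an actin-binding protein of leukocytes, was at 2.53, 2.44 and 2.44 FPKM in the sham samples and at 2.0, 4.27 and 2.67 FPKM in the DAC samples. LCP1, the actin-bundling protein L-plastin, was at 2.56, 1.95 and 2.90 FPKM in the sham samples and at 2.01, 4.601 and 2.74 FPKM in the DAC samples. LCP1 overlaps a gene without a symbol over 1170 bases on the same strand. In these genes DAC replicate 5 stood above the other 5 samples, and the log2 differences of 0.14, 0.16 and 0.21 for LAPTM5, CORO1A and LCP1 had adjusted P values of 0.884, 0.845 and 0.817 from limma.

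The remaining pan-leukocyte genes differed in which sample was highest. The guanine exchange factors VAV1 and DOCK2, which activate Rac in leukocytes, had log2 differences of 0.29 and 0.18 and were highest in DAC replicate 5. The tetraspanin CD53 had a log2 difference of -0.01 and was highest in sham replicate 1. The adhesion molecule CD48, the transcription factor IKZF1 and the GTPase RAC2 stayed below the minimum, and RAC2 was at 0.649 to 0.822 FPKM in the sham group and 0.550 to 0.793 FPKM in the DAC group. IKZF1 (chromosome 9, 136372724 to 136464942), which encodes Ikaros, was at 0.728, 0.806 and 0.791 FPKM in the sham samples and at 0.960, 1.31 and 1.14 FPKM in the DAC samples, without overlap. With no minimum on FPKM its log2 difference was 0.27 (unadjusted P = 0.0497, adjusted P = 0.620 from limma). That fit called 3 of the 29 members and 7.95% of 13288 genes, with 2 members higher (3.27% of genes) and 1 lower (4.68%). That call was lost without sham replicate 1, 2 or 3, without DAC replicate 5 or 6, after median scaling and after quantile normalization. CD48 was at 0.637 to 0.757 FPKM in the sham group and at 0.544, 2.07 and 1.13 FPKM in DAC replicates 4, 5 and 6. With no minimum, its log2 difference of 0.35 was the largest of the pan-leukocyte members, and without DAC replicate 4 it was 0.59 and CD48 was called. Of the 10 pan-leukocyte members, 8 had a higher mean log2 value after DAC, and the median difference of the 10 was 0.19. Among the 7 that passed the minimum the median was 0.18, which became -0.038 when DAC replicate 5 was left out and 0.35 when DAC replicate 4 was.

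**Figure D3:**
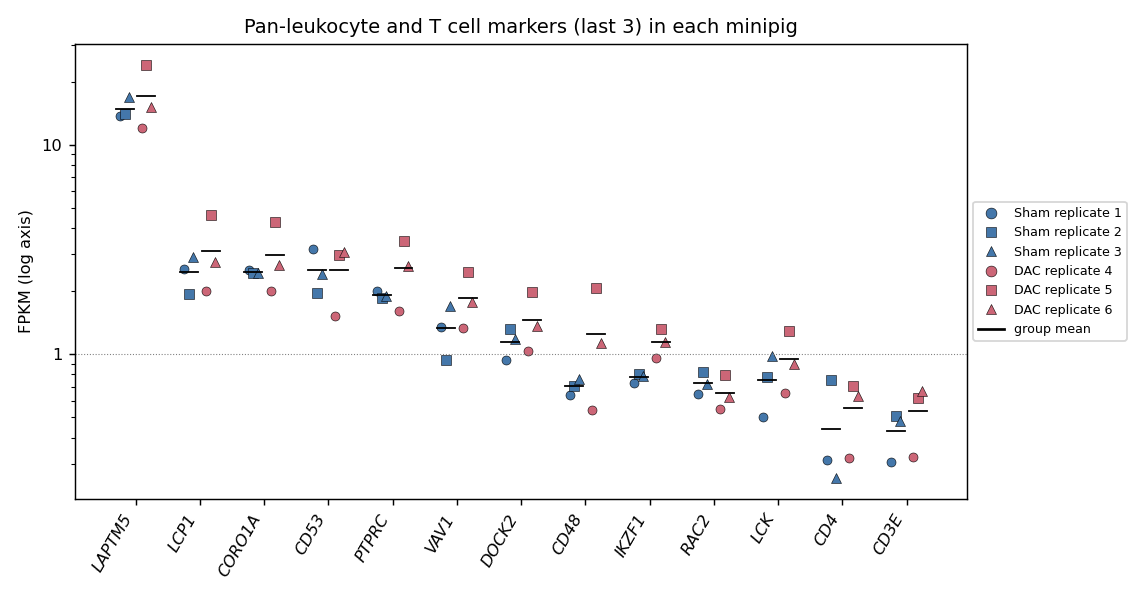
FPKM of the 10 pan-leukocyte markers and, as the last 3, of the T cell markers LCK, CD4 and CD3E, on a log axis, in each of 3 sham (blue) and 3 DAC (red) minipigs, with black bars at the group means and a dotted line at 1 FPKM. DAC replicate 5 (red square) is the highest sample in 8 of the 10 pan-leukocyte genes and DAC replicate 4 (red circle) is the lowest in 6.

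T cell transcripts were near the lower end of the table, in which every gene reaches at least 0.5001 FPKM in its highest sample. LCK (chromosome 6, 88720176 to 88745917), the kinase that starts signaling from the T cell receptor, was at 0.499, 0.781 and 0.985 FPKM in the sham samples and at 0.649, 1.29 and 0.900 FPKM in the DAC samples. CD3E (chromosome 9, 45619481 to 45635379), the epsilon chain of the receptor complex, was at 0.305, 0.509 and 0.479 FPKM in the sham samples and at 0.323, 0.618 and 0.665 FPKM in the DAC samples. CD4 (chromosome 5, 63892132 to 63918669), the co-receptor of helper T cells, was at 0.312, 0.751 and 0.255 FPKM in the sham samples and at 0.321, 0.701 and 0.631 FPKM in the DAC samples. The groups overlapped in all 3 genes. CD4 overlaps GPR162 over 2211 bases on the same strand. With no minimum on FPKM, the log2 differences were 0.15 for LCK, 0.10 for CD3E and 0.11 for CD4, with 95% confidence intervals from -0.25 to 0.54, from -0.22 to 0.42 and from -0.29 to 0.52. The summed FPKM of the 3 genes was 1.63 ± 0.470 (SD, n = 3) in the sham group and 2.03 ± 0.675 (SD, n = 3) in the DAC group. True differences anywhere within the 95% confidence intervals, in either direction, remain compatible with these values.

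The DAC minipigs differed among themselves in the leukocyte genes. DAC replicate 5 was the highest of the 6 samples in 13 of the 29 members, against 14.9% of all genes in the table, and DAC replicate 4 was the lowest in 11, against 19.5%. The summed FPKM of the pan-leukocyte members was 28.3, 26.8 and 31.6 in the sham samples and 23.6, 48.0 and 32.3 in DAC replicates 4, 5 and 6. For the myeloid members the sum was 127, 113 and 132 in the sham samples and 109, 130 and 130 in the DAC samples, so DAC replicate 5 stood apart in the pan-leukocyte sum and not in the myeloid sum. LAPTM5 alone gave 24.1 FPKM of the pan-leukocyte sum in DAC replicate 5. By gene, DAC replicate 5 was highest in 8 of the 10 pan-leukocyte and 4 of the 16 myeloid members. On the log2 scale the SD of the DAC group was larger than that of the sham group in all 10 pan-leukocyte members and in 10 of the 16 myeloid members, against 58.2% of all genes in the table. DAC replicate 5 also had the highest share of mitochondrially encoded RNA, 32.8% of its summed FPKM, against 27.1% and 27.2% in the other DAC samples and 24.0% to 25.3% in the sham samples. The part of this share in the leukocyte values was not tested. With the mitochondrially encoded genes left out and the rest rescaled, the median log2 difference was 0.20 for the tested pan-leukocyte members and 0.047 for the tested myeloid members.

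**Figure D4:**
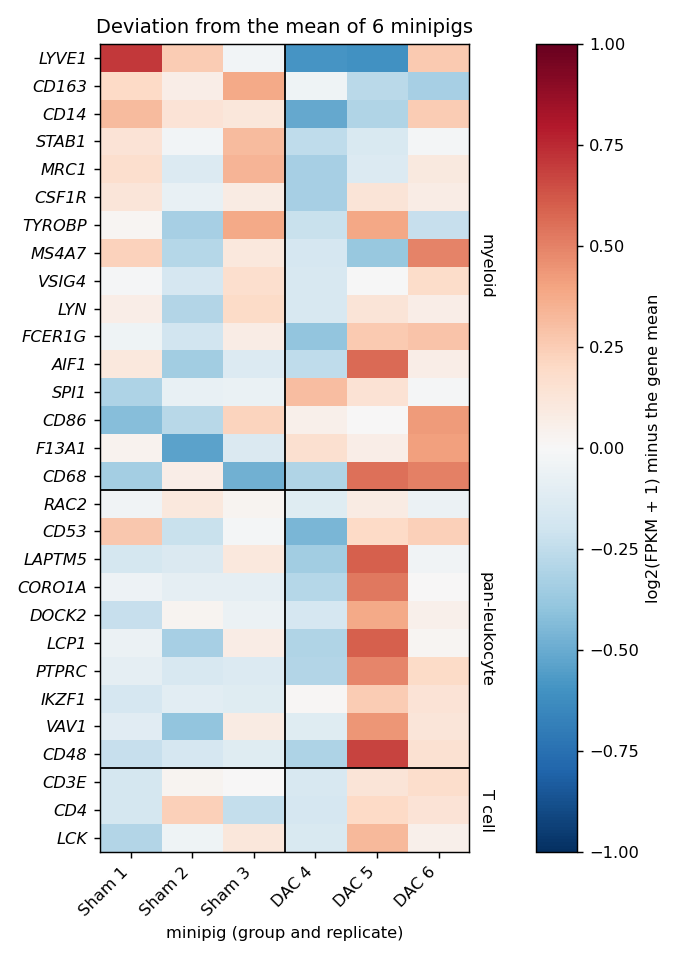
Deviation of each of the 29 markers from its mean over the 6 minipigs, in log2(FPKM + 1), for the myeloid, pan-leukocyte and T cell markers (rows, separated by lines) in each sham and DAC minipig (columns), with red above and blue below the mean. The column of DAC replicate 5 is red across most pan-leukocyte genes and the column of DAC replicate 4 is mostly blue, while CD163 is below its mean in all 3 DAC columns.

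**Figure D5:**
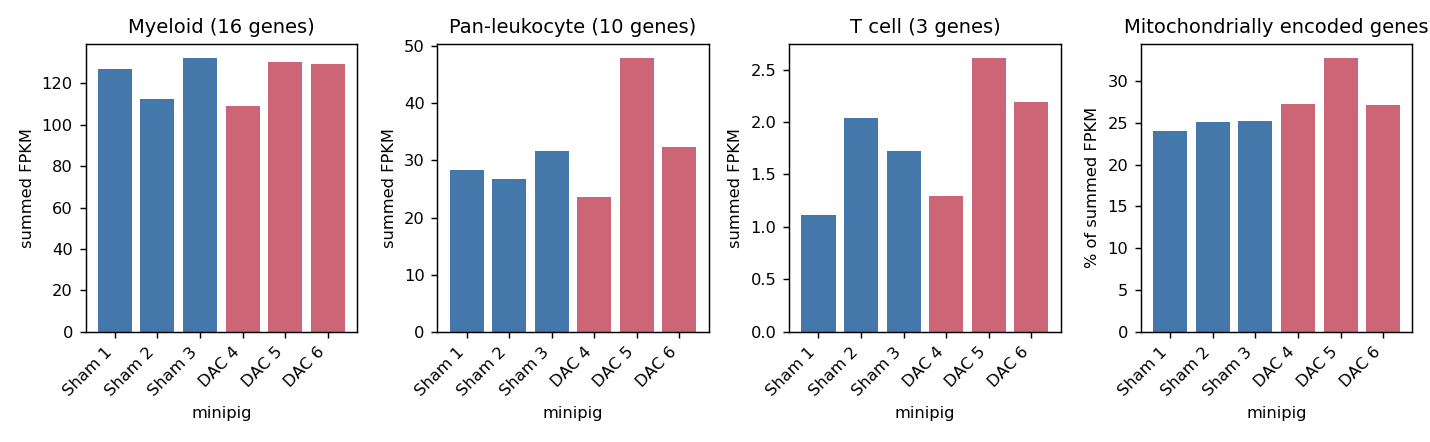
Summed FPKM of the myeloid, pan-leukocyte and T cell markers and the percent of summed FPKM from mitochondrially encoded genes in each sham (blue bars) and DAC (red bars) minipig. The pan-leukocyte sum reaches 48.0 in DAC replicate 5 and lies between 23.6 and 32.3 in the other samples, while the myeloid sums span 109 to 132.

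Macrophage receptors were also set against PTPRC within each sample, a comparison chosen after the values were seen. CSF1R was at 10.6 to 11.6 times the FPKM of PTPRC in the sham group and at 10.1, 6.52 and 8.28 times in DAC replicates 4, 5 and 6. STAB1 was at 5.24 to 6.69 times PTPRC in the sham group and at 5.10, 2.55 and 3.72 times in the DAC samples. LYVE1 was at 3.76 to 6.27 times PTPRC in the sham group and at 2.79, 1.28 and 3.38 times in the DAC samples. CD163, the scavenger receptor called lower, overlapped between the groups in this ratio. It was at 5.36 to 6.66 times PTPRC in the sham group and at 5.69, 2.21 and 2.77 times in DAC replicates 4, 5 and 6. Of the 28 members other than PTPRC, 6 had a ratio to PTPRC that was lower in every DAC sample than in any sham sample, 5 of them myeloid, and 0 had a higher one. The ratio was lower without overlap in 9.60% of all genes in the table and higher in 0.421%. CD68 relative to PTPRC overlapped, at 2.42 to 3.85 in the sham group and 3.00 to 3.81 in the DAC group.

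Further leukocyte genes were read from lists of the same cell types. Of 40 other macrophage and monocyte genes, 29 were in the table and 17 were tested. Of these 17, 1 was called higher and 0 were called lower, beside 3.25% and 5.27% of all genes tested. The median log2 difference was 0.040 against -0.016 over all genes tested. The called gene was AXL, a receptor tyrosine kinase for the uptake of dying cells that stromal cells also express, at 8.25 to 9.53 FPKM in the sham group and 9.83 to 13.1 FPKM in the DAC group. The complement gene C1QC, a strong macrophage transcript, was at 31.5 to 46.9 FPKM in the sham group and at 34.9, 30.3 and 57.5 FPKM in DAC replicates 4, 5 and 6. DAC replicate 6, not replicate 5, was highest in C1QC. CCR2, the chemokine receptor of recruited monocytes, was at 0.470 to 0.675 FPKM in the sham group, 0.605 in DAC replicate 4, 1.999 in DAC replicate 5 and 0.559 in DAC replicate 6. C1QC and CCR2 were picked out after their values were seen.

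Of 37 other T, B and natural killer cell genes, 13 were in the table, 8 were tested and 0 were called, beside 8.51% of all genes tested. The summed level of these 13 genes was 20.7 to 27.8 FPKM in the sham group and 20.5 to 31.3 FPKM in the DAC group. CD79A, at 5.79 to 7.94 FPKM, gave the largest part in every library, so this sum says little about the genes at lower levels. Of 37 genes of shared leukocyte signaling, 32 were in the table, and DAC replicate 5 was highest in 22 of them. In that list 23 genes were tested, and 1 was called higher and 1 lower, beside 3.25% and 5.27% of all genes tested. The median log2 difference of the list was 0.16. PTPN6, the phosphatase SHP-1, was at 2.44 to 3.10 FPKM in the sham group and 3.38 to 4.17 FPKM after DAC, which is 0.39 in log2. RASGRP2, an activator of Rap1 in platelets and lymphocytes, was at 1.96 to 2.59 FPKM in the sham group and 1.17 to 1.44 FPKM after DAC, which is -0.53 in log2. Of 19 granulocyte and mast cell markers, 3 were in the table, 2 were tested and 0 were called. The granulocyte receptor CSF3R, picked out after its values were seen, was at 0.328 to 0.9753 FPKM in the sham group and at 0.935, 2.15 and 0.827 FPKM in DAC replicates 4, 5 and 6.

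Genes that recruit or hold leukocytes were read as a further list. Of 19 tested growth factors, chemokines and adhesion molecules, 4 were called higher and 2 were called lower, beside 3.25% and 5.27% of all genes tested, and this difference from all genes was not tested. The list also holds CD34, PECAM1 and THY1, which mark endothelium or stroma. CCL2, the main chemokine for monocytes that carry CCR2, was at 8.32, 7.11 and 8.12 FPKM in the sham samples and at 19.8, 8.84 and 18.6 FPKM in DAC replicates 4, 5 and 6. Its log2 fold change was 0.85 with a standard error of 0.28 (adjusted P = 0.522 from limma), and DAC replicate 5, the library with the highest pan-leukocyte sum, was the lowest DAC sample. VCAM1, an endothelial ligand of leukocyte integrins, was at 4.50 to 7.15 FPKM in the sham group and 7.25 to 10.7 FPKM after DAC, which is 0.53 in log2. CCL2 and VCAM1 were picked out after their values were seen. The remaining genes called higher were CD34, at 20.4 to 22.9 FPKM against 28.1 to 38.8 FPKM, and CCL19, at 0.315 to 1.05 FPKM against 1.40 to 2.40 FPKM. ICAM2, an adhesion molecule of endothelium, fell from 5.34 ± 0.406 FPKM (SD, n = 3) to 3.73 ± 0.293 FPKM (SD, n = 3), and the chemokine CXCL14 was at 1.13 to 3.07 FPKM against 0.290 to 1.04 FPKM. CCL19 passed the minimum only through its DAC samples and CXCL14 only through its sham samples. The calls of CCL19 and CXCL14 therefore cannot be read as support for a difference. The growth factor CSF1 was at 7.32 to 10.4 FPKM in the sham group and 8.88 to 13.2 FPKM in the DAC group, and IL34 was at 2.19 to 4.56 FPKM and 1.02 to 4.47 FPKM.

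The markers of other cell types in the same libraries were read beside the leukocyte markers. Of 10 fibroblast markers, 4 were called higher and 0 were called lower, beside 3.25% and 5.27% of all genes tested. The called genes were the collagens COL1A1, COL1A2 and COL3A1 and the proteoglycan LUM, with log2 fold changes of 0.81, 0.59, 0.46 and 0.74. The summed FPKM of the list was 567 to 648 in the sham group and 769 to 903 in the DAC group, and without the collagens it was 256 to 293 and 230.5 to 402, with overlap. Of 10 endothelial markers, 2 were called higher and 2 were called lower, beside the same shares of all genes tested. KDR and EMCN were higher, with log2 fold changes of 0.60 and 0.39. VWF and CLDN5 were lower, with log2 fold changes of -0.49 and -1.22. The summed FPKM of this list, which mixes both directions, was 155 to 215 in the sham group and 136 to 204 in the DAC group. Of 10 cardiomyocyte markers in the table, 0 were called higher and 1, the calcium release channel RYR2, was called lower. The part of these cell types in the leukocyte values was not tested.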

How the data were processed

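RNA from the ventricular myocardium of 3 sham and 3 DAC minipigs was made into NEBNext Ultra libraries, 1 for each minipig, and read from both ends (Illumina HiSeq). The authors deposited FPKM values for each gene, and per the labels the processing used HISAT2 and susScr11. The quantification program and its handling of shared reads are not given in the sources used here. The authors' symbols were kept, and 519 genes that lacked a symbol received it by identifier. Depth is unknown: among 2903 low genes, at most 4 shared a ratio between samples, so whole reads could not be recovered.

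Groups were compared on log2(FPKM + 1) with limma 3.58.1 in R 4.3.3, with a variance trend and Benjamini-Hochberg adjustment. The 11029 genes that reached 1 FPKM in 3 or more samples entered, and figures were drawn with matplotlib 3.10.9. Members below this minimum were described from the fit without it, which gave the T cell median. Sums and ratios used FPKM as deposited. The fit was tested on simulated data. Alternatives were median scaling, quantile normalization, mitochondrially encoded genes left out, no minimum, 5 FPKM as minimum, a pseudocount of 0.1, variance of each gene on its own, sample weights and each sample left out.

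The members, lists, classes and alternatives were chosen with earlier results of these data known. Values in every sample are given for members called, members whose groups do not overlap, the 3 of each class with the highest mean, and PTPRC, CD68, CD163, MRC1, CD3E, CD4 and CD8A, which has no row. Up to 3 called genes with the smallest P are named from each further list of leukocyte or lymphatic endothelial genes. Sequences of the members were not analysed here.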

Additional observations from a re-analysis of the deposited data

How the results depend on the processing

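No call in the list passed adjustment over all genes, and groups of 3 limit what can be seen: the standard error of the log2 difference was 0.13 for CD163 and 0.28 for LYVE1. Of 381 pairs of a member and an alternative, 356 kept their side of the threshold, 13 gained a call and 12 lost one. A change of sign with a call in either fit occurred in 0 pairs. The sign changed without a call in several members, most often MS4A7 (5 of 12 alternatives), LYN and CD53 (4 of 13 each). With 2 members called in all samples, the count was 1 when the variance of each gene was estimated on its own, and 2 to 4 with 1 sample left out in turn, highest without DAC replicate 4 or DAC replicate 6. Members called higher were 2 with no minimum, without the mitochondrially encoded genes, after quantile normalization and after median scaling, and 0 with the variance of each gene on its own. With 1 sample left out they were 0 to 3, lowest without sham replicate 2 and highest without DAC replicate 4. Members called lower were 1 to 3, highest without DAC replicate 6. The cause was not tested. A call gained by leaving out the sample that went most against the difference cannot be read as support for it. This applies to LYVE1, STAB1, CD14, CD68, FCER1G, PTPRC and CD48. The medians and sums of the classes moved by less than the spread between minipigs. Leaving out 1 of 3 minipigs can hardly move a class by more than this spread, so those alternatives could not show instability this way. The pan-leukocyte median changed sign without DAC replicate 5 (-0.038). The myeloid median lay between -0.12 and 0.12 and the T cell median between 0.038 and 0.29 over the alternatives. A sum after quantile normalization could not be given, since not all members had a value there. No paired analysis was possible because the replicate numbers of the groups, 1 to 3 and 4 to 6, are not shared.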
